A study of Homo sapiens with 28 samples.

Results

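The unfolded protein response and the integrated stress response were read in U937 cells through 39 genes, taken by symbol from a table of 56809 gene symbols. All 39 symbols were in the table, and all 39 were among the 18624 genes left by a filter on low counts. By role, 17 were genes that the transcription factor ATF4 is known to switch on or that act beside it (here ATF4-type genes: 9 regulators, 5 enzymes and 3 transporters). A further 14 were chaperones and folding enzymes of the endoplasmic reticulum (ER), 5 were ER stress sensors or transducers, and 3 belonged to ER-associated degradation. U937 is a human line with features of monocytes. In separate clones, CRISPR had targeted the NF-kB subunits p50 (2 clones), p52 (2 clones), p65 (3 clones), cREL (2 clones) or RELB (2 clones). The 3 control clones, CTR, carried non-specific guide RNAs. Each of the 14 clones gave an LPS library, from cells with bacterial lipopolysaccharide at 500 ng/ml, and an untreated library, and the time was 6 h for both. This made 28 libraries in 12 groups. The labels name 3 sample batches: batch A held no CTR clone, batch B held CTR replicate 2, and batch C held CTR replicates 1 and 3 together with p65 replicates 2 and 3 and no other knockout. The labels name no agent that blocks protein folding or starves cells of amino acids, so the libraries show these genes at rest and with LPS.

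In the unfolded protein response, misfolded protein in the ER activates sensors in its membrane. IRE1 (gene ERN1) splices the messenger RNA of XBP1, ATF6 is cut to free a transcription factor, and PERK (gene EIF2AK3) phosphorylates the translation factor eIF2. XBP1 and ATF6 then raise chaperones, folding enzymes and degradation genes. Phosphorylated eIF2 is also the hub of the integrated stress response, which amino acid shortage, haem shortage and viral RNA reach through other kinases. It slows translation in general while ATF4 protein is made, and ATF4 raises genes for amino acid synthesis and uptake, its own partners, and the phosphatase subunit that ends the response. In mouse macrophages, IRE1 and XBP1 are known to act downstream of Toll-like receptors in cytokine production. The gene totals analysed here do not separate spliced from unspliced XBP1 and say nothing of ATF4 protein.

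Control sequences were searched upstream of the members, and those found are shown because the results compare the same groups of genes. RefSeq promoters (GRCh38.p14, 250 bases before to 50 bases after each annotated start, 53 windows) were found for 36 of the 39 genes, and SHMT2, PDIA3 and SLC7A11 had none in the table used. The ER stress response element was searched as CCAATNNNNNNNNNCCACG on both strands and occurred in 0.0769% of 35116 promoters of all genes. Among the members it was present for 7 genes. Of these, 6 were among the 13 chaperone genes with a promoter, and none was among the 15 ATF4-type genes with one. Its second form, ATTGGNCCACG, occurred in 0.0541% of all promoters and was found for HYOU1, SDF2L1 and HERPUD1. The C/EBP-ATF response element, searched as TGATGNAA, occurred in 3.62% of all promoters. It was found for 7 members, of which 5 were among the 15 ATF4-type genes with a promoter and none was a chaperone. The others were HERPUD1 and PPP1R15B, so most ATF4-type genes had no such match in these windows. The unfolded protein response element TGACGTGG (0.729% of all promoters) was found for HYOU1, where it overlapped a copy of the second element form, and the cyclic AMP response element TGACGTCA (1.85%) for PPP1R15A. In the sequences shown, written 5′ to 3′ on the strand of the gene, capitals mark the element or its reverse complement. The first 5 belong to the chaperone genes HSPA5 (chr9:125241371-125241429, minus strand), HYOU1 (chr11:119057254-119057304, minus strand), SDF2L1 (chr22:21642094-21642144, plus strand), CALR (chr19:12938364-12938422, plus strand) and CRELD2 (chr22:49918534-49918592, plus strand).
HSPA5: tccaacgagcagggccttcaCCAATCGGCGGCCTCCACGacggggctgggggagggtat
HYOU1: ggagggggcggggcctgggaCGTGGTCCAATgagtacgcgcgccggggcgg
SDF2L1: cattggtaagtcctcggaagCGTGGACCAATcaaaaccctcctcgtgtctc
CALR: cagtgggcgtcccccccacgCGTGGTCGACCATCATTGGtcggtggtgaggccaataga
CRELD2: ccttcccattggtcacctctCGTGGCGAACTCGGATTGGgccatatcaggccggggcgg
The sensor and degradation genes XBP1 (chr22:28800598-28800626, minus strand) and HERPUD1 (chr16:56932016-56932044, plus strand) carried the same elements.
XBP1: gctggCCAATCGCGGAGGGCCACGaccgt
HERPUD1: cggacgccgATTGGGCCACGttgggagag
The ATF4-type genes shown are ASNS (chr7:97872458-97872487, minus strand), ATF3 (chr1:212565196-212565243, plus strand), CEBPG (chr19:33374051-33374098, plus strand), CHAC1 (chr15:40953251-40953280, plus strand) and PPP1R15A (chr19:48872343-48872390, plus strand).
ASNS: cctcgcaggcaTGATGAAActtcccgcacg
ATF3: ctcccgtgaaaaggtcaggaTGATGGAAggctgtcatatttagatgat
CEBPG: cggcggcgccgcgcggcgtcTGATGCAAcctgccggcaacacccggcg
CHAC1: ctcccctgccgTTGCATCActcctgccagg
PPP1R15A: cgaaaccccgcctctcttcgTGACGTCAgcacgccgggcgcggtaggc
The shares of all promoters count windows, whereas members were counted as genes, some with several windows, so the 2 are not on the same scale. A match in these windows describes letters, and binding was not measured here.

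Some facts of the libraries touch the results that follow. Estimated counts summed to 12643438 to 22122428 per library. Of 11 myeloid markers, 10 had a median of at least 1 TPM (a level that is corrected for transcript length and scaled to the same total in each library), and their sum was 2160 to 5772 TPM. MPO, the other one, had a median of 0.0 TPM. The summed levels were 102 to 528 TPM for T and NK cell markers, nearly all from NKG7, with CD3D at 0 in every library. They were 4.46 to 15.4 TPM for B cell markers, with MS4A1 at 0 everywhere, and at most 2.68 TPM for epithelial, 3.44 for fibroblast and 19.2 for erythroid and platelet markers. RELA, which encodes p65, stood at 43.8 and 52.1 TPM in the libraries labelled p65 replicate 1, against 3.20 to 8.19 TPM in p65 replicates 2 and 3 and 23.2 to 38.3 TPM in the other 22 libraries. No member passed the edgeR test in p65 against CTR, with that clone or without it. Messenger RNA of the other targeted genes was also found in their own knockouts. With LPS, RELB had 11.4 and 19.3 TPM in RELB clones, against 19.6, 26.2 and 18.4 in CTR. REL had 7.1 and 2.49 TPM in cREL clones, against 14.7, 12.5 and 13.8 in CTR. NFKB1, which encodes p50, had 6.83 and 4.10 TPM in p50 clones, against 10.3, 14.5 and 13.2 in CTR. NFKB2, which encodes p52, had 1.63 and 1.96 TPM in p52 clones, against 5.19, 6.84 and 7.51 in CTR. A set of 4 libraries, p50 replicate 2 with LPS and untreated, p52 replicate 2 untreated and RELB replicate 1 with LPS, stood apart from the other 24 in the member DNAJB11. They were picked by its low level after the data were seen, so its values in them are a description only. Of 9982 genes with a mean of at least 5 CPM (counts scaled to the library total), 398 were lower in each of these 4 libraries than in any other, and 10 were higher. The 398 genes had a median transcript GC content of 54.6%, against 47.8% for all 9982. Beside DNAJB11, by which the libraries were picked, they included the members CEBPG and CRELD2. Transcript GC content was 49.5% for DNAJB11, 43.9% for CEBPG and 60.7% for CRELD2, and CEBPG separated by 0.031 on the log2 CPM scale. Genes of highest minus genes of lowest GC content gave −0.714 and −0.253 in p50 replicate 2 untreated and with LPS. That difference was 0.123 in untreated p52 replicate 2 and −0.2 in RELB replicate 1 with LPS, so its sign differed among the 4. Among other libraries, CTR replicate 2 with LPS had −0.22. CTR replicate 2, the only CTR clone of batch B, differed from the other CTR clones in many members. Labels that share a genotype and number were read as 1 clone, and p-values measure the spread among the clones sequenced. In bulk RNA, fewer cells of a kind and less RNA per cell cannot be told apart.

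The levels covered a wide range. Over the 28 libraries, the highest mean was that of PDIA3, a disulfide isomerase that folds glycoproteins, at 756 TPM. CALR and CANX, the lectin chaperones calreticulin and calnexin, averaged 693 and 361 TPM, and HSP90B1, the ER member of the HSP90 family, 644 TPM. HSPA5, the ER chaperone BiP that also holds the sensors inactive, averaged 479 TPM, with single libraries from 304.5 to 793 TPM. PDIA3 had 555 and 669.7 TPM in p50, 809.5 and 773 in p52, 703, 1015 and 990.2 in p65, 754 and 702 in cREL, 735 and 679.8 in RELB, and 779.8, 753 and 632 in CTR in the LPS libraries, where values of a group stand in the order of replicate numbers here and in all lists that follow. Without LPS, PDIA3 had 598 and 659.5 TPM in p50, 666 and 771 in p52, 746, 973 and 1093 in p65, 691 and 698 in cREL, 706 and 828 in RELB, and 773, 694 and 710.0 in CTR. Every library thus held PDIA3 at 554.9 TPM or more, and p65 replicates 2 and 3 held the 4 highest values. Untreated p65 replicate 3 had the highest TPM of any library for 16 of the 39 genes, and the highest CPM for 5. TPM also follows the effective transcript length that was estimated in each library, so TPM and CPM, on which the tests rest, can order libraries differently. At the other end, CHAC1, a glutathione-degrading enzyme that is among the most sensitive ATF4 targets, never exceeded 1.10 TPM and had no count in 11 of the 28 libraries. The sensors were low as well, with medians of 2.29 TPM for EIF2AK3, 4.89 TPM for ATF6 and 5.04 TPM for ERN1. ATF4 itself stood at 196 to 398 TPM, a range that overlapped those of HSPA5 and CANX.

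In the unpaired model, which does not compare each clone with itself, LPS raised 1 of the 39 genes in CTR, ATF3. It encodes a stress-induced transcription factor that in mouse macrophages is known to dampen Toll-like receptor responses. In the LPS libraries, ATF3 had 5.56 and 2.45 TPM in p50, 8.01 and 5.89 in p52, 5.75, 5.46 and 3.30 in p65, 7.21 and 3.91 in cREL, 23.4 and 18.6 in RELB, and 10.4, 16.4 and 7.53 in CTR. Untreated libraries had 2.79 and 2.80 TPM in p50, 2.29 and 3.19 in p52, 4.01, 3.31 and 5.25 in p65, 5.89 and 5.32 in cREL, 6.43 and 5.46 in RELB, and 3.08, 5.96 and 2.61 in CTR. Every CTR library with LPS lay above every untreated CTR library, the RELB libraries with LPS lay above all 26 others, and in p50, p65 and cREL the treatments overlapped. The log2 fold was 1.32 ± 0.29 in CTR (SE, edgeR quasi-likelihood test, adjusted p = 0.0467, higher in 3 of 3 clones), where 0.408% of all genes passed. Averaged over the 6 genotypes the log2 fold of ATF3 was 0.88 ± 0.14 (SE, edgeR adjusted p = 0.00148, higher in 13 of 14 clones by CPM and in 11 by TPM), again the only one of the 39, where 0.403% of all genes passed. The mean call held under every alternative run and without each of the 14 clones, with log2 folds from 0.82 to 0.94. The CTR call did not hold with other size factors (adjusted p = 0.0528), without the low-count filter (0.0662), without a batch term (0.131), in batch C alone (0.46) or without the 4 libraries that stood apart (0.0787). It held without p65 replicate 1 or 3 and not without any 1 of the other 12 clones, where the adjusted p reached 0.578.

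In the knockouts taken singly no member passed in this unpaired model. ATF3 came closest in RELB at 1.69 ± 0.35 on the log2 scale (SE, edgeR adjusted p = 0.0764), and stood at 1.08 ± 0.36 in p52, 0.84 ± 0.29 in p65, and at −0.18 ± 0.35 in cREL, where the clones differed by 0.00 and −0.36 on the log2 CPM scale. The counts of members with an unadjusted p under 0.05 were 0 in p50, 1 in p52, 1 in p65, 0 in cREL and 7 in RELB, against 5 in CTR, and 7 in the mean. Over all genes that share was 1.79% in p50, 1.96% in p52, 1.56% in p65, 1.72% in cREL, 2.89% in RELB, 5.12% in CTR and 4.25% in the mean. DESeq2 and limma voom called 0 members in p50, p52, p65 and cREL and ATF3 alone in RELB. Over all genes the edgeR test called 0.0161% in p50, 0.0215% in p52, 0.0268% in p65, 0.0107% in cREL and 0.129% in RELB, so that few genes of any kind passed in these groups. No member had a response that passed as different from that in CTR (edgeR, 0 of 39 in each knockout). For that difference the unadjusted count was 1 in cREL (ATF3, −1.50 ± 0.45, SE, edgeR adjusted p = 1), where 3.01% of all genes had such a p, and 0 in the other 4 knockouts, and DESeq2, limma voom and the clone-paired model called 0. All genes passing there were 0.0% in p50, p52, cREL and RELB and 0.0161% in p65.

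**Figure D1:**
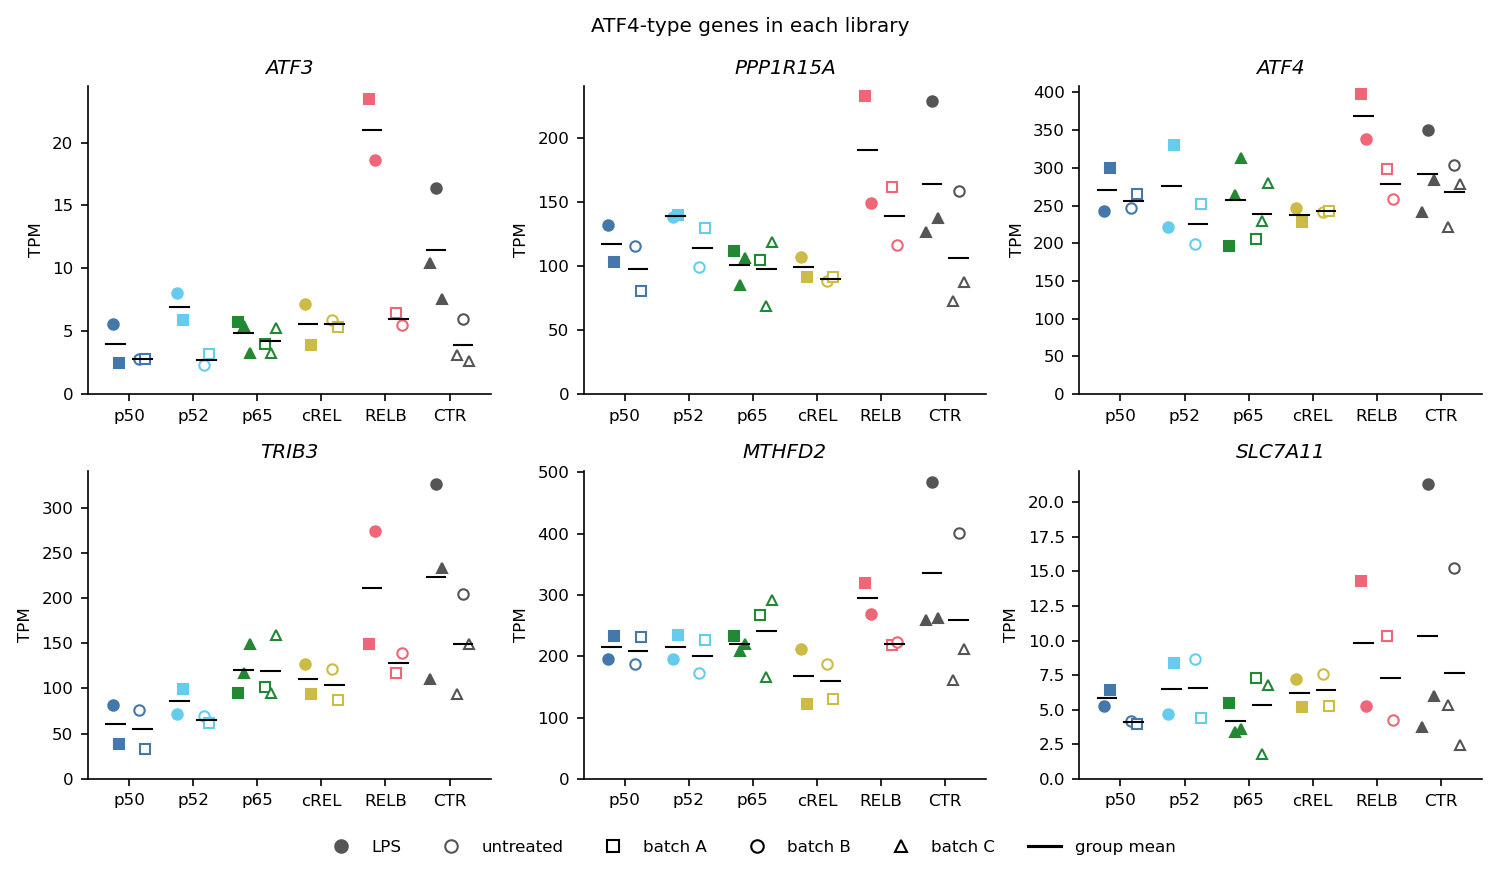
Level in TPM of 6 ATF4-type genes in each of the 28 libraries, by genotype, with LPS (filled) to the left of untreated (open), marker shape for batch and a bar for the group mean. ATF3 with LPS reached 23.4 and 18.6 TPM in RELB and 7.53 to 16.4 TPM in CTR, and CTR replicate 2 held the highest TRIB3, MTHFD2 and SLC7A11 values of all libraries.

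When each clone was compared with itself, more of the ATF4-type regulators passed. In this paired model, with the clone as a block, PPP1R15A rose in CTR with a log2 fold of 0.68 (edgeR adjusted p = 0.000696) and averaged over the 6 genotypes with 0.35 (adjusted p = 0.000237). PPP1R15A encodes GADD34, the stress-induced subunit that brings a phosphatase to eIF2 and ends the response. With LPS, PPP1R15A had 132 and 103 TPM in p50, 138 and 140.0 in p52, 112, 85.0 and 106 in p65, 107 and 91.1 in cREL, 232 and 149 in RELB, and 127, 229 and 137 in CTR. Without LPS it had 116 and 80.3 TPM in p50, 99.0 and 129 in p52, 105, 68.9 and 119 in p65, 88.3 and 91.3 in cREL, 162 and 116 in RELB, and 72.5, 159 and 87.2 in CTR. By CPM it was higher with LPS in 14 of 14 clones, by 0.04 to 0.77 on the log2 scale, and by TPM in 12. The TPM ranges of the treatments overlapped in every genotype but p52.

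ATF4 rose in the paired model averaged over the 6 genotypes, by a log2 fold of 0.19 (adjusted p = 0.036), and in RELB by 0.54 (adjusted p = 0.0305). It had 243 and 299 TPM in p50, 222 and 329.9 in p52, 196, 264 and 313 in p65, 247 and 228 in cREL, 398 and 339 in RELB, and 241, 350.0 and 284 in CTR with LPS. Untreated libraries held 247 and 265 TPM in p50, 199 and 252 in p52, 205, 229.8 and 279.9 in p65, 242 and 243 in cREL, 298 and 258 in RELB, and 221, 304 and 278 in CTR. The 2 RELB libraries with LPS lay above both untreated RELB libraries, and in the other genotypes the ranges overlapped. TRIB3, a pseudokinase that binds ATF4 and feeds back on it, rose by 0.34 averaged over the 6 genotypes (adjusted p = 0.0488) and was higher in 12 of 14 clones. In CTR the other paired call was MTHFD2 (0.41, adjusted p = 0.0404), an enzyme of mitochondrial one-carbon metabolism. RELB added ATF3 (1.69, adjusted p = 0.0153) and PPP1R15B (0.58, adjusted p = 0.0363), which encodes the constitutive partner of that phosphatase. Paired counts were thus 3 in CTR, 4 in RELB and 4 in the mean, where 1.27%, 0.435% and 0.886% of all genes passed, and 0 in p50, p52, p65 and cREL. Without the 4 libraries that stood apart, the unpaired log2 fold of PPP1R15A in RELB was 0.10, against 0.57 with them, and that of ATF4 was 0.33, against 0.53. That fit sets RELB replicate 2 with LPS against both untreated RELB libraries, so these folds also hold the difference between the clones. Within clones, PPP1R15A was higher with LPS in 14 of 14 by CPM.

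The other regulators had no call with LPS in either model. ATF5, a factor of the same family that also marks mitochondrial stress, was higher with LPS in 11 of 14 clones (median difference 0.40 on the log2 CPM scale), and stood at 0.73 ± 0.29 in CTR in the unpaired model (SE, adjusted p = 0.756 by edgeR). DDIT3, which encodes the pro-apoptotic factor CHOP, was higher in 10 of 14 clones and had 28.9 and 27.6 TPM in p50, 34.6 and 26.9 in p52, 28.5, 40.4 and 39.3 in p65, 39.3 and 26.9 in cREL, 75.8 and 88.8 in RELB, and 62.8, 94.5 and 42.4 in CTR with LPS. Its untreated libraries had 21.8 and 24.5 TPM in p50, 25.2 and 28.8 in p52, 25.7, 43.6 and 19.6 in p65, 32.2 and 32.8 in cREL, 59.99 and 41.8 in RELB, and 64.4, 88.8 and 28.0 in CTR. The 7 highest values came from RELB and from CTR replicates 1 and 2. SESN2, sestrin 2, a sensor protein that restrains mTORC1, was higher in 10 of 14 clones and had 7.04 and 1.76 TPM in p50, 7.22 and 6.87 in p52, 5.87, 15.8 and 20.8 in p65, 9.45 and 8.20 in cREL, 7.38 and 9.20 in RELB, and 11.2, 20.3 and 17.8 in CTR with LPS. The untreated libraries had 8.14 and 1.20 TPM in p50, 6.92 and 2.61 in p52, 7.52, 11.3 and 23.9 in p65, 8.49 and 6.47 in cREL, 9.54 and 8.90 in RELB, and 11.7, 13.0 and 10.9 in CTR. Its lowest values came from 3 of the 4 libraries that stood apart. CEBPG, a partner of ATF4 on DNA, was higher in 10 of 14 clones with a median difference of 0.09.

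Among amino acid enzymes and transporters, only MTHFD2 passed with LPS, in CTR in the paired model. PSAT1, PHGDH and SHMT2, which make serine and glycine, had median within-clone differences of −0.04, 0.02 and 0.01 on the log2 CPM scale. PSAT1 had 155 and 191 TPM in p50, 184 and 201 in p52, 201, 126 and 167 in p65, 144 and 173 in cREL, 259.8 and 191 in RELB, and 115, 261 and 116 in CTR with LPS. The untreated values were 146 and 197 TPM in p50, 138 and 201 in p52, 227, 117 and 211 in p65, 139 and 186 in cREL, 219.6 and 244 in RELB, and 129, 242 and 139.9 in CTR. The highest PSAT1 values came from CTR replicate 2, RELB replicate 1 with LPS and untreated RELB replicate 2. SHMT2, the mitochondrial enzyme that splits serine into glycine and a one-carbon unit, had 176 and 231 TPM in p50, 196 and 233 in p52, 230.2, 283 and 349.8 in p65, 209.6 and 175 in cREL, 211 and 302 in RELB, and 454, 296 and 261 in CTR with LPS. In untreated libraries it had 167 and 178 TPM in p50, 159 and 229.8 in p52, 229, 296 and 425 in p65, 207 and 194 in cREL, 187 and 375 in RELB, and 397, 262 and 257 in CTR. CTR replicate 1 with LPS had the highest SHMT2 and the lowest PSAT1 of all libraries. SLC7A11, the cystine and glutamate exchanger, was higher with LPS in 11 of 14 clones by CPM (median difference 0.40) and in 8 by TPM, and had 5.29 and 6.43 TPM in p50, 4.70 and 8.34 in p52, 5.52, 3.42 and 3.58 in p65, 7.23 and 5.21 in cREL, 14.3 and 5.27 in RELB, and 3.72, 21.3 and 5.99 in CTR with LPS. Without LPS it had 4.18 and 3.98 TPM in p50, 8.70 and 4.38 in p52, 7.32, 1.78 and 6.82 in p65, 7.59 and 5.26 in cREL, 10.3 and 4.24 in RELB, and 5.32, 15.2 and 2.46 in CTR. CTR replicate 2 and RELB replicate 1 exceeded 10 TPM at either treatment, and no other library did. Its heavy-chain partner SLC3A2 had 186 and 222 TPM in p50, 187 and 240.0 in p52, 219, 248.9 and 309 in p65, 228 and 216 in cREL, 320.1 and 216 in RELB, and 234, 306 and 242 in CTR with LPS. Untreated libraries held 159 and 194 TPM in p50, 178 and 236 in p52, 235, 215 and 351 in p65, 214 and 231 in cREL, 246 and 209.6 in RELB, and 231, 274 and 255 in CTR. For SLC3A2 the treatments overlapped in every genotype. The large neutral amino acid carrier SLC7A5 had 31.8 and 17.9 TPM in p50, 35.7 and 36.2 in p52, 34.97, 42.4 and 59.5 in p65, 40.5 and 32.4 in cREL, 28.2 and 40.1 in RELB, and 33.5, 53.8 and 46.2 in CTR with LPS. Its untreated values were 29.1 and 21.2 TPM in p50, 28.1 and 25.3 in p52, 40.5, 32.9 and 75.1 in p65, 43.5 and 42.6 in cREL, 28.3 and 32.8 in RELB, and 35.5, 44.1 and 43.6 in CTR. For SLC7A5 both p52 libraries with LPS lay above and both cREL libraries with LPS below the untreated ones, and the other genotypes overlapped. Median within-clone differences were 0.07 for SLC3A2 and 0.05 for SLC7A5.

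No ER chaperone gene passed the test with LPS. Across the 14 genes, no call was made in any genotype or in the mean, in the unpaired or the paired model, and 0 had an unadjusted p under 0.05 in any of these 7 comparisons by edgeR. DESeq2 and limma voom called none of the 14 with LPS. The median log2 fold of the 14 genes averaged over the 6 genotypes was 0.04, against 0.18 for the 17 ATF4-type genes and 0.00 for all genes tested. HSPA5 had 310.4 and 367 TPM in p50, 482 and 481 in p52, 477, 577 and 617 in p65, 464 and 474 in cREL, 617 and 446 in RELB, and 562, 368 and 459.7 in CTR with LPS. Without LPS it had 304 and 363 TPM in p50, 405 and 457 in p52, 489, 574 and 793 in p65, 451 and 539 in cREL, 542 and 499 in RELB, and 488, 327 and 479.5 in CTR. The treatments overlapped in every genotype but p52. Within clones, HSPA5 differed by −0.12 to 0.23 on the log2 CPM scale, CALR by −0.08 to 0.17, PDIA4 by −0.13 to 0.15 and HSP90B1 by −0.09 to 0.14. The wider ranges were those of SDF2L1 (−0.76 to 1.40), a stress-induced partner of ER DnaJ proteins, MANF (−1.65 to 1.75), a secreted survival factor, CRELD2 (−1.04 to 0.90) and DNAJB11 (−1.31 to 1.32), a BiP co-chaperone, and their signs differed between clones. SDF2L1 had 72.6 and 54.7 TPM in p50, 67.5 and 52.9 in p52, 76.5, 64.4 and 43.7 in p65, 84.3 and 90.3 in cREL, 37.5 and 54.9 in RELB, and 87.8, 37.9 and 88.3 in CTR with LPS. Untreated, it had 70.2 and 38.1 TPM in p50, 92.2 and 59.3 in p52, 63.2, 62.3 and 20.3 in p65, 95.0 and 71.1 in cREL, 58.1 and 34.1 in RELB, and 93.0, 62.8 and 69.8 in CTR. The treatments overlapped in every genotype.

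**Figure D2:**
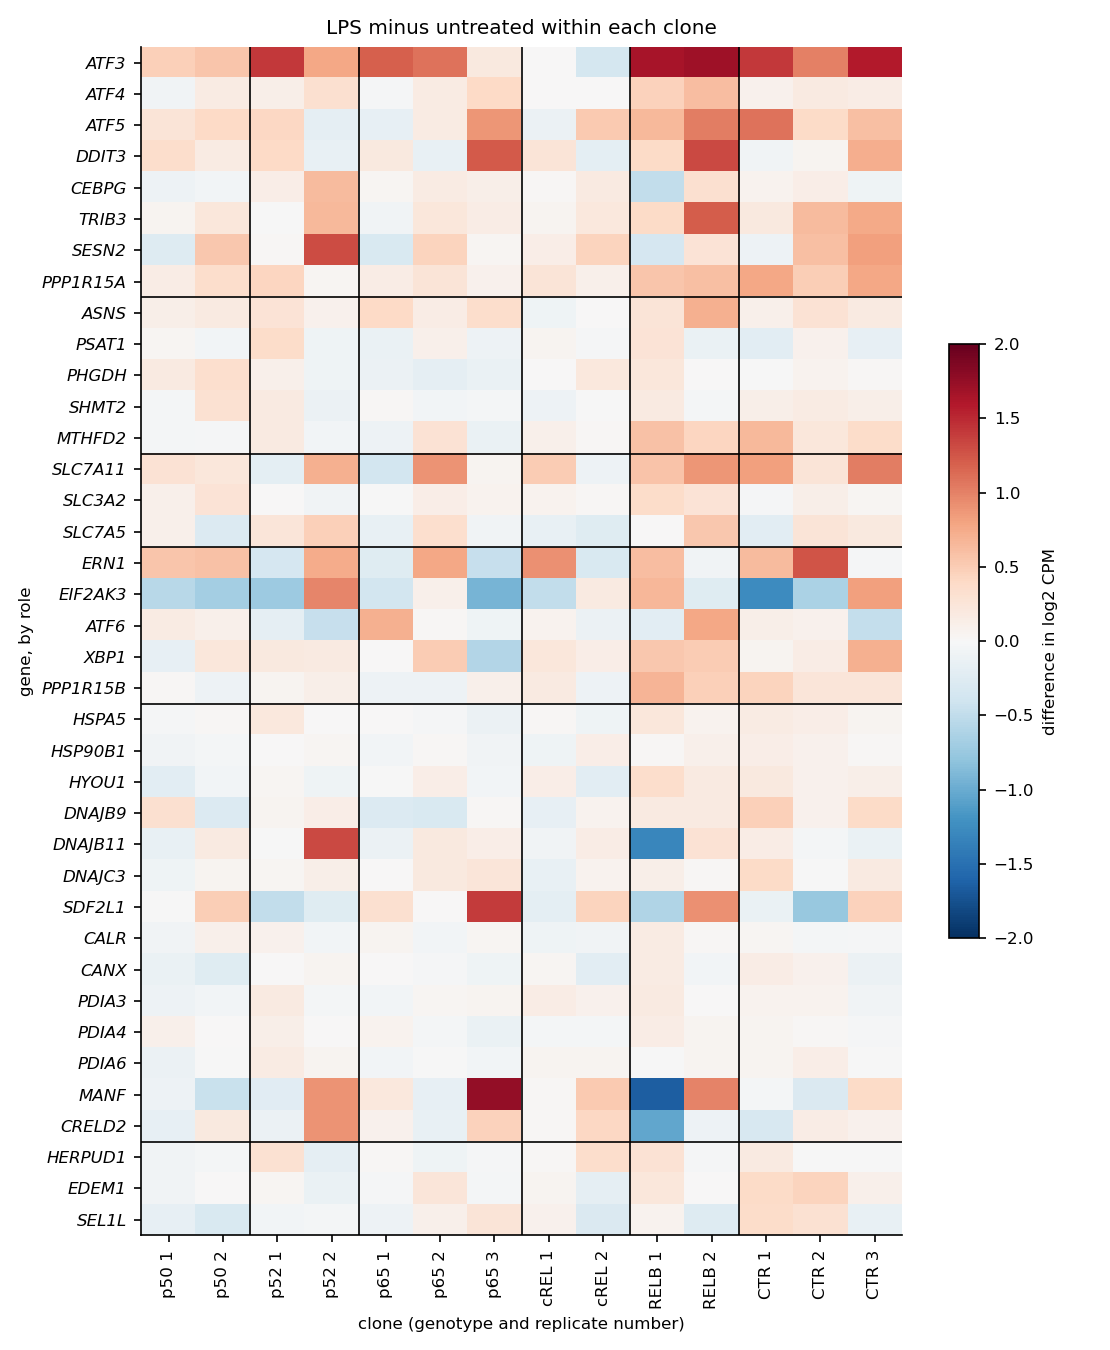
Difference in log2 CPM, LPS minus untreated, within each of the 14 clones (columns, by genotype and replicate number) for 38 of the 39 genes (lines, by role), with red for higher with LPS. CHAC1, at no more than 1.10 TPM in any library, is not drawn, and its differences ran from −3.04 to 2.26. ATF3 runs from −0.36 to 1.70 and most chaperone cells are pale, with MANF, DNAJB11 and CRELD2 as exceptions in single clones.

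Sensors, transducers and degradation genes had no unpaired call with LPS in any genotype. ERN1, which encodes IRE1, had 7.46 and 2.79 TPM in p50, 4.55 and 7.36 in p52, 3.84, 8.55 and 2.94 in p65, 5.38 and 6.49 in cREL, 12.9 and 11.1 in RELB, and 2.68, 6.75 and 2.02 in CTR with LPS. Untreated libraries had 1.58 and 3.04 TPM in p50, 6.00 and 5.12 in p52, 6.41, 4.97 and 9.30 in p65, 2.09 and 2.87 in cREL, 8 and 7.54 in RELB, and 4.47, 2.67 and 1.56 in CTR. The 2 RELB libraries with LPS held the highest values, and the mean log2 fold over genotypes was 0.37 ± 0.16 (SE, edgeR adjusted p = 1). EIF2AK3, which encodes PERK, had 2.38 and 1.37 TPM in p50, 2.37 and 4.29 in p52, 1.59, 1.86 and 3.44 in p65, 1.95 and 1.86 in cREL, 3.29 and 4.11 in RELB, and 1.15, 0.882 and 2.399 in CTR with LPS. Its untreated values were 5.67 and 3.15 TPM in p50, 2.81 and 2.20 in p52, 2.12, 2.17 and 7.74 in p65, 4.26 and 1.33 in cREL, 1.89 and 4.81 in RELB, and 3.75, 1.87 and 1.87 in CTR. It was higher with LPS in 5 of 14 clones by CPM, and by TPM both p50 libraries with LPS lay below both untreated ones. By CPM the p50 libraries overlapped, at 7.258 and 4.302 with LPS against 10.67 and 6.975 untreated. XBP1 had 80.9 and 77.3 TPM in p50, 92.1 and 91.9 in p52, 95.5, 106 and 97.7 in p65, 124 and 86.0 in cREL, 97.4 and 154 in RELB, and 64.6, 120.0 and 84.2 in CTR with LPS. Untreated, it had 88.7 and 66.9 TPM in p50, 76.7 and 76.8 in p52, 98.0, 71.7 and 169 in p65, 106 and 85.7 in cREL, 70.5 and 128 in RELB, and 64.5, 106 and 54.4 in CTR. XBP1 was higher in 12 of 14 clones by CPM, with a median difference of 0.19, and its highest TPM came from untreated p65 replicate 3. PPP1R15B, called in RELB under the paired model, had 26.8 and 20.8 TPM in p50, 28.1 and 25.3 in p52, 19.5, 23.6 and 24.3 in p65, 26.6 and 18.3 in cREL, 37.7 and 46.1 in RELB, and 27.3, 48.0 and 26.1 in CTR with LPS. Without LPS it had 25.4 and 22.4 TPM in p50, 26.1 and 22.3 in p52, 21.7, 24.7 and 27.0 in p65, 23.3 and 21.1 in cREL, 24.2 and 38.9 in RELB, and 19.6, 39.6 and 23.9 in CTR. CTR replicate 2 and RELB replicate 2 stood above the rest at either treatment.

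HERPUD1, a membrane protein that assembles the degradation complex, had 61.6 and 86.3 TPM in p50, 92.2 and 85.6 in p52, 105, 105 and 129.6 in p65, 101 and 103 in cREL, 163 and 113 in RELB, and 143, 87.3 and 105 in CTR with LPS. Its untreated values were 67.7 and 88.1 TPM in p50, 82.4 and 102 in p52, 92.4, 112 and 156 in p65, 87.4 and 86.7 in cREL, 136 and 143 in RELB, and 129.7, 90.4 and 105 in CTR. The highest HERPUD1 values came from RELB replicate 1 with LPS and untreated p65 replicate 3. EDEM1, which extracts misfolded glycoproteins, had 20.8 and 24.2 TPM in p50, 25.7 and 23.1 in p52, 21.7, 18.9 and 17.9 in p65, 23.5 and 19.0 in cREL, 28.9 and 30.5 in RELB, and 20.03, 33.5 and 18.0 in CTR with LPS. Untreated libraries had 22.1 and 23.1 TPM in p50, 23.0 and 24.4 in p52, 22.4, 15.6 and 22.2 in p65, 23.97 and 23.7 in cREL, 30.5 and 36.8 in RELB, and 17.6, 22.6 and 18.2 in CTR. RELB and CTR replicate 2 with LPS held the highest EDEM1. SEL1L, the scaffold of the HRD1 ubiquitin ligase, had 19.6 and 14.8 TPM in p50, 25.4 and 17.9 in p52, 16.8, 19.4 and 22.8 in p65, 19.9 and 16.5 in cREL, 23.7 and 24.7 in RELB, and 31.7, 28.1 and 25.6 in CTR with LPS. Its untreated values were 21.0 and 16.2 TPM in p50, 20.4 and 21.3 in p52, 18.1, 18.6 and 23.1 in p65, 20.6 and 18.6 in cREL, 24.99 and 31.6 in RELB, and 18.1, 21.2 and 20.5 in CTR. In CTR, SEL1L with LPS lay above every untreated CTR library, with 25.6 to 31.7 TPM against 18.1 to 21.2 TPM, and its fitted log2 fold of 0.18 ± 0.14 did not pass the test (SE, edgeR adjusted p = 1). By CPM the SEL1L values in CTR overlapped, at 126.3, 126.5 and 98.61 with LPS against 98.04, 102.4 and 108.8 untreated. In CTR the unpaired log2 fold of EDEM1 was 0.31 ± 0.12 (SE, edgeR adjusted p = 0.705).

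Without LPS, no member differed from CTR in any knockout by the edgeR test. Unadjusted p under 0.05 was reached by 7 members in p50, 8 in p52, 6 in p65, 6 in cREL and 6 in RELB, and by 11 in the mean of the 5 knockouts. Over all genes that share was 6.42% in p50, 7.6% in p52, 12.9% in p65, 5.78% in cREL, 11.0% in RELB and 8.81% in the mean, while 0.0% in p50, 0.0% in p52, 0.0537% in p65, 0.0% in cREL, 0.0107% in RELB and 0.0322% in the mean passed after adjustment. DESeq2 called TRIB3 in p50 (−1.43, adjusted p = 0.0357) and limma voom called no member. The share of all genes that DESeq2 called there is not given. Without p65 replicate 2, edgeR called DDIT3 in p65 (−1.68, adjusted p = 0.0308). The fitted folds ran in opposite directions by role: averaged over the 5 knockouts, 17 of 17 ATF4-type genes were below 0 with a median of −0.34, and 11 of 14 chaperone genes were above 0 with a median of 0.17, against −0.03 for all genes tested. All 5 comparisons share the CTR libraries. Without CTR replicate 2 the ATF4-type median was 0.10, with 10 of 17 genes above 0, and the chaperone median 0.10. Without a batch term they were −0.33 and −0.01.

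With LPS, the knockouts differed from CTR in 2 ATF4-type genes. Averaged over the 5 knockouts, MTHFD2 fell by 0.86 ± 0.18 on the log2 scale (SE, edgeR adjusted p = 0.0232) and TRIB3 by 1.05 ± 0.24 (adjusted p = 0.043), where 0.838% of all genes passed. In p50, TRIB3 fell by 1.89 ± 0.36 (SE, edgeR adjusted p = 0.0387), where 0.129% of all genes passed. TRIB3 had 82.2 and 39.2 TPM in p50, 71.9 and 99.6 in p52, 95.0, 117 and 149 in p65, 128 and 94.4 in cREL, 149 and 274 in RELB, and 111, 326 and 233 in CTR with LPS. Its untreated libraries had 76.8 and 32.6 TPM in p50, 69.8 and 61.3 in p52, 102, 95.5 and 159 in p65, 122 and 87.0 in cREL, 117 and 139.6 in RELB, and 94.2, 205 and 149.6 in CTR. With LPS, all p50 and p52 libraries lay below all CTR libraries, and p65, cREL and RELB overlapped them. MTHFD2 had 196 and 233 TPM in p50, 196 and 236 in p52, 234, 209 and 220.0 in p65, 212 and 122 in cREL, 319.8 and 269 in RELB, and 259.5, 484 and 262 in CTR with LPS. Untreated, it had 187 and 232 TPM in p50, 173 and 227 in p52, 268, 167 and 291 in p65, 188 and 131 in cREL, 218 and 223 in RELB, and 162, 401 and 213 in CTR. With LPS, the libraries of p50, p52, p65 and cREL lay below each CTR library, and RELB lay between the lowest and the highest.

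These calls depended on single clones. With each of the 14 clones left out in turn, TRIB3 in p50 held 5 times, TRIB3 in the mean 5 times and MTHFD2 in the mean 8 times. Without CTR replicate 2 the log2 fold of TRIB3 was −1.44 in p50 (edgeR adjusted p = 0.456) and −0.67 in the mean (adjusted p = 0.644), and that of MTHFD2 was −0.55 in the mean (adjusted p = 0.564). Without CTR replicate 3 the values were −1.73 (adjusted p = 0.0821), −0.86 (0.162) and −0.88 (0.066), and without the 4 libraries that stood apart TRIB3 in p50 was −1.59 (adjusted p = 0.677). Without p65 replicate 1, the clone with RELA messenger RNA at the level of the other genotypes or above, 3 members passed in p50, 3 in p52, 2 in cREL and 5 in the mean. More genes of any kind passed in that fit: 0.726% in p50, 1.29% in p52, 0.623% in cREL and 1.96% in the mean. The 5 members were MTHFD2 (−0.97), TRIB3 (−1.16), SLC7A11 (−1.57), PPP1R15B (−0.54) and, with a higher level, the disulfide isomerase gene PDIA6 (0.65).

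No member passed in p52, p65, cREL or RELB with LPS. All genes passing were 0.0698% in p52, 0.993% in p65, 0.199% in cREL and 0.0483% in RELB. The values nearest to the threshold were MTHFD2 in cREL (−1.24 ± 0.26, SE, edgeR adjusted p = 0.0529), ATF3 in p50 (−1.69 ± 0.36, adjusted p = 0.0641), ATF3 in p65 (−1.11 ± 0.29, adjusted p = 0.0728) and PPP1R15B in p65 (−0.56 ± 0.15, adjusted p = 0.0787). DESeq2 called 2 members in p52, 3 in p65, 1 in cREL and 0 in RELB, and limma voom 0, 2, 1 and 0 in the same order. The shares of all genes here are for edgeR only, so the DESeq2 and limma voom counts are no result about the members. With LPS, ATF3 in p50, p65 and cREL lay below each CTR library, whereas in RELB it lay above each of them (log2 fold 0.51 ± 0.34, SE, edgeR adjusted p = 0.665). Members with an unadjusted p under 0.05 numbered 10 in p50, 12 in p52, 9 in p65, 10 in cREL and 5 in RELB, and 10 in the mean. The shares of all genes were 9.9% in p50, 9.87% in p52, 12.4% in p65, 9.14% in cREL, 9.8% in RELB and 11.8% in the mean.

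By role, the median folds with LPS had opposite signs in 4 of the 5 knockouts. ATF4-type medians were −0.42 in p50, −0.44 in p52, −0.37 in p65, −0.43 in cREL and −0.17 in RELB, with 16, 16, 14, 15 and 13 of 17 genes below 0. Chaperone medians were −0.05 in p50, 0.20 in p52, 0.07 in p65, 0.32 in cREL and 0.04 in RELB, and 14 of 14 chaperone genes were above 0 in cREL. Medians of all genes tested were −0.05 in p50, −0.02 in p52, 0.01 in p65, −0.02 in cREL and −0.04 in RELB. Without CTR replicate 2 the ATF4-type medians were −0.31 in p50, −0.24 in p52, −0.28 in p65, 0.11 in cREL and 0.17 in RELB. Under that omission the chaperone medians were −0.10 in p50, 0.12 in p52, 0.07 in p65, 0.11 in cREL and −0.04 in RELB. In cREL 8 of 14 chaperone genes were then above 0. Signs were then opposite in p52, p65 and RELB, in RELB with the ATF4-type median above 0 and the chaperone median below. Without a batch term the chaperone medians were −0.23 in p50, −0.03 in p52 and −0.19 in RELB, and 0.10 in p65 and 0.04 in cREL. The low-level sensor gene EIF2AK3 went the other way from the ATF4-type genes, with log2 folds of 1.19 ± 0.52 in p52 and 1.67 ± 0.51 in RELB (SE, edgeR adjusted p = 0.445 and 0.238).

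**Figure D3:**
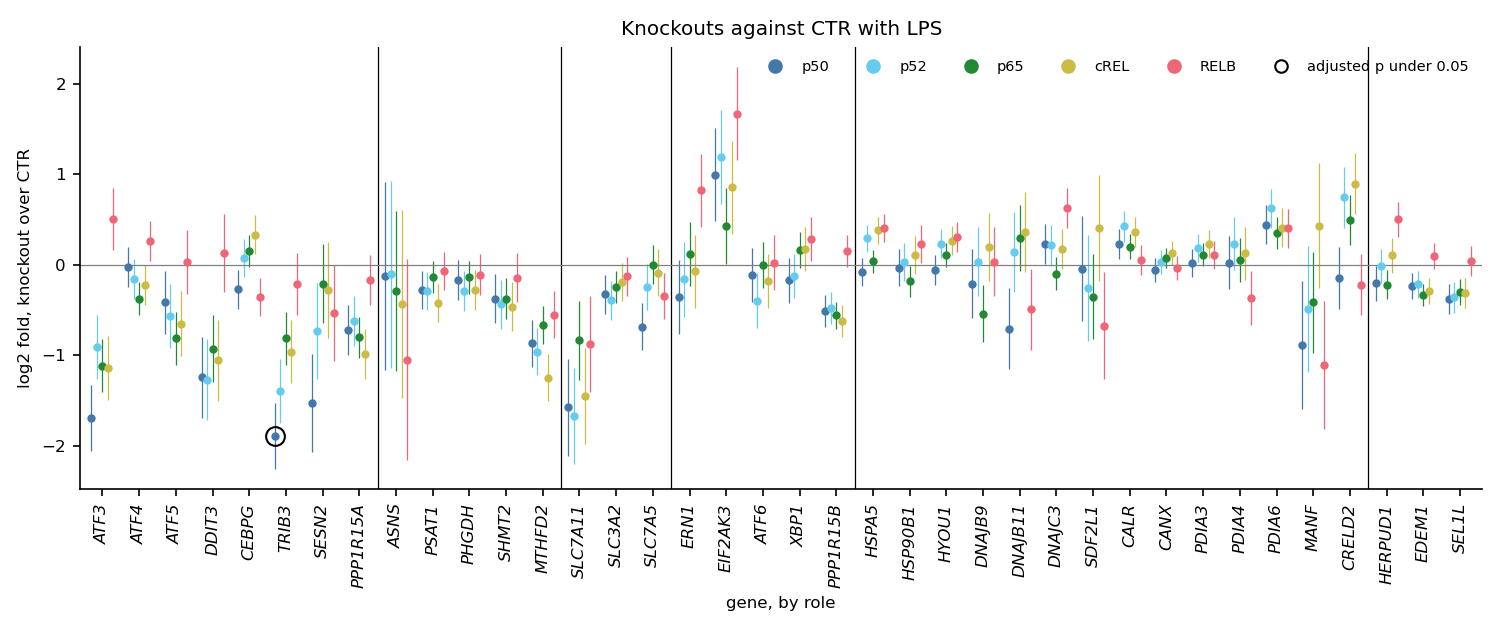
Log2 fold of each knockout over CTR with LPS, with its standard error, for 38 of the 39 genes by role (CHAC1 is not drawn) and a ring where the adjusted p was under 0.05. The ring marks TRIB3 in p50 at −1.89, and ATF3 stands at −1.69 in p50 and 0.51 in RELB.

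The contrast between the roles was also read in each library as the mean log2(TPM + 1) of the 17 ATF4-type genes minus that of the 14 chaperone genes, a description with no test. With LPS this difference averaged −1.69 ± 0.02 in p50, −1.89 ± 0.12 in p52, −2.01 ± 0.13 in p65, −2.02 ± 0.17 in cREL, −1.36 ± 0.26 in RELB and −1.52 ± 0.61 in CTR (SD, n = 2 or 3). Untreated it averaged −1.91 ± 0.03 in p50, −2.003 ± 0.20 in p52, −2.01 ± 0.29 in p65, −2.02 ± 0.07 in cREL, −1.80 ± 0.12 in RELB and −1.75 ± 0.52 in CTR. The LPS mean was thus higher by 0.44 in RELB, 0.23 in CTR, 0.22 in p50 and 0.11 in p52, and the treatments differed by less than 0.01 in p65 and cREL. Within clones it was higher with LPS in both RELB clones (0.53 and 0.35), in all 3 CTR clones (0.13, 0.33 and 0.24), in both p50 clones (0.23 and 0.20) and in both p52 clones (0.17 and 0.05). The p65 clones had −0.03, 0.18 and −0.15 and the cREL clones 0.07 and −0.08. In RELB replicate 1 the chaperone mean was lower in the LPS library (by −0.25), which is 1 of the 4 libraries that stood apart.

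The large SD in CTR came from replicate 2. It had −0.84 with LPS and −1.17 untreated, while CTR replicates 1 and 3 had −2.02 and −1.70 with LPS and −2.15 and −1.94 untreated. Its ATF4-type mean was the highest of the libraries of either treatment and its chaperone mean was below that of the other CTR clones. In batch B alone, where replicate 2 is the only CTR clone, knockout minus CTR with LPS was −0.87 in p50, −1.14 in p52, −1.06 in cREL and −0.70 in RELB. In batch C alone, p65 minus CTR with LPS was −0.17. The other batch B clones with LPS had −1.71 in p50, −1.98 in p52, −1.90 in cREL and −1.54 in RELB. The batch A clones of these genotypes with LPS had −1.68, −1.81, −2.14 and −1.18 in the same order.

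**Figure D4:**
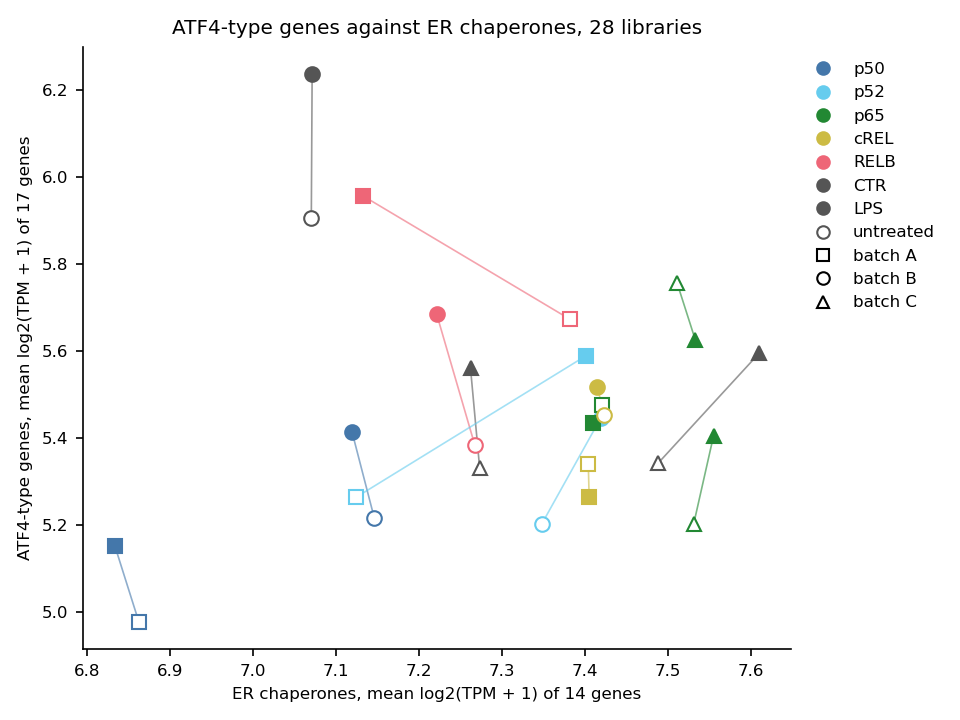
Mean log2(TPM + 1) of the 17 ATF4-type genes against that of the 14 chaperone genes in each of the 28 libraries, filled with LPS and open untreated, with a line joining the libraries of a clone and marker shape for batch. CTR replicate 2 with LPS has the highest ATF4-type mean, 6.24, at a chaperone mean of 7.07, and p50 replicate 2 with LPS the lowest chaperone mean, 6.83, at an ATF4-type mean of 5.15.

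Members of a role varied together only in part. Over the residuals of the 28 libraries from the unpaired model, the median correlation between pairs of ATF4-type genes, CHAC1 left out, was 0.25 (120 pairs), between pairs of chaperone genes 0.27 (91 pairs) and between the roles 0.03 (224 pairs), beside 0.00 for all gene pairs. The libraries of a clone share the clone, and libraries share batch and GC content, so these are descriptions. The closest pairs of ATF4-type genes were ATF4 with SLC3A2 (0.83) and PPP1R15A with ASNS (0.83), and SLC7A11 with SLC3A2 had 0.81. Among chaperones, SDF2L1 with MANF had 0.92 and HYOU1 with CALR 0.86, and HSPA5 had 0.87 with the degradation gene HERPUD1. The closest pair of all joined roles: CEBPG with DNAJB11 (0.93), both of them low in the 4 libraries that stood apart. ASNS with PDIA4 (0.91), also from different roles, were both lowest in RELB replicate 2.

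Some members were set by single clones. ASNS, which encodes asparagine synthetase, the standard ATF4 reporter gene, had 25.7 and 31.9 TPM in p50, 30.2 and 33.7 in p52, 34.0, 7.09 and 21.5 in p65, 24.3 and 21.9 in cREL, 42.0 and 2.04 in RELB, and 12.8, 32.4 and 13.2 in CTR with LPS. Untreated, it had 23.4 and 27.7 TPM in p50, 24.7 and 29.97 in p52, 26.5, 6.21 and 20.01 in p65, 26.5 and 24.96 in cREL, 35.6 and 1.41 in RELB, and 11.5, 25.6 and 12.2 in CTR. RELB replicate 2 held 2.04 and 1.41 TPM with LPS and untreated, while RELB replicate 1 held the highest values of all libraries, and p65 replicate 2 held 7.09 and 6.21 TPM. PDIA4, a disulfide isomerase with extra thioredoxin domains, had 115 and 126 TPM in p50, 149.7 and 162 in p52, 164, 200.3 and 190.5 in p65, 133 and 134 in cREL, 158 and 58.3 in RELB, and 178, 129 and 144 in CTR with LPS. Untreated values were 102 and 127 TPM in p50, 133 and 159 in p52, 165, 208 and 254 in p65, 136 and 142 in cREL, 145 and 68.5 in RELB, and 166, 124 and 155 in CTR. RELB replicate 2 again held the lowest values, at 58.3 TPM with LPS and 68.5 TPM untreated. Neither gene passed in RELB against CTR. With RELB replicate 2 as the only RELB clone, ASNS was lower than in CTR, with log2 folds of −4.91 with LPS and −5.55 untreated. PDIA4 was lower as well, at −1.12 and −1.19, and untreated SLC7A11 at −2.11. With RELB replicate 1 as the only one the BiP co-chaperone gene DNAJC3 was higher than in CTR, by 1.05 with LPS and 1.13 untreated. In these fits the lone clone is assumed to vary like the other groups. The clones and genes were named after their values were seen, so only the size of each difference is given.

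DNAJB11 had 122 and 31.6 TPM in p50, 140.5 and 118 in p52, 121, 159 and 156 in p65, 143 and 125 in cREL, 44.3 and 150 in RELB, and 146, 134 and 114 in CTR with LPS. Its untreated values were 129 and 28.1 TPM in p50, 137 and 44.1 in p52, 135, 137 and 169 in p65, 143 and 121 in cREL, 111 and 149.9 in RELB, and 125, 132 and 134 in CTR. The 4 libraries that stood apart, picked by this gene, held 28.1 to 44.3 TPM, and all 24 others at least 111 TPM. MANF had 83.7 and 21.7 TPM in p50, 95.3 and 60.1 in p52, 91.4, 87.3 and 72.8 in p65, 127 and 124 in cREL, 27.6 and 86.9 in RELB, and 126, 78.5 and 132 in CTR with LPS. Untreated, it had 91.5 and 34.97 TPM in p50, 95.7 and 34.1 in p52, 76.4, 98.6 and 23.9 in p65, 116 and 86.7 in cREL, 79.5 and 51.8 in RELB, and 118, 94.0 and 109.6 in CTR. Its low values came from those 4 libraries and from untreated p65 replicate 3. CRELD2, an ER protein with disulfide isomerase features, had 59.3 and 23.6 TPM in p50, 73.7 and 77.8 in p52, 57.7, 80.3 and 71.7 in p65, 79.8 and 73.2 in cREL, 23.2 and 66.3 in RELB, and 51.6, 58.5 and 48.0 in CTR with LPS. Untreated, it had 65.6 and 20.5 TPM in p50, 76.6 and 40.0 in p52, 54.1, 86.6 and 61.9 in p65, 78.0 and 58.7 in cREL, 50.4 and 83.6 in RELB, and 62.4, 51.9 and 48.2 in CTR. It was likewise lowest in the 4 libraries. In clone pairs that hold 1 such library, p52 replicate 2 and RELB replicate 1, the LPS differences of DNAJB11 were 1.32 and −1.31 on the log2 CPM scale, with opposite signs as the low library was the untreated one in p52 and the LPS one in RELB. The part of GC content in the DNAJB11 values was not tested.

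**Figure D5:**
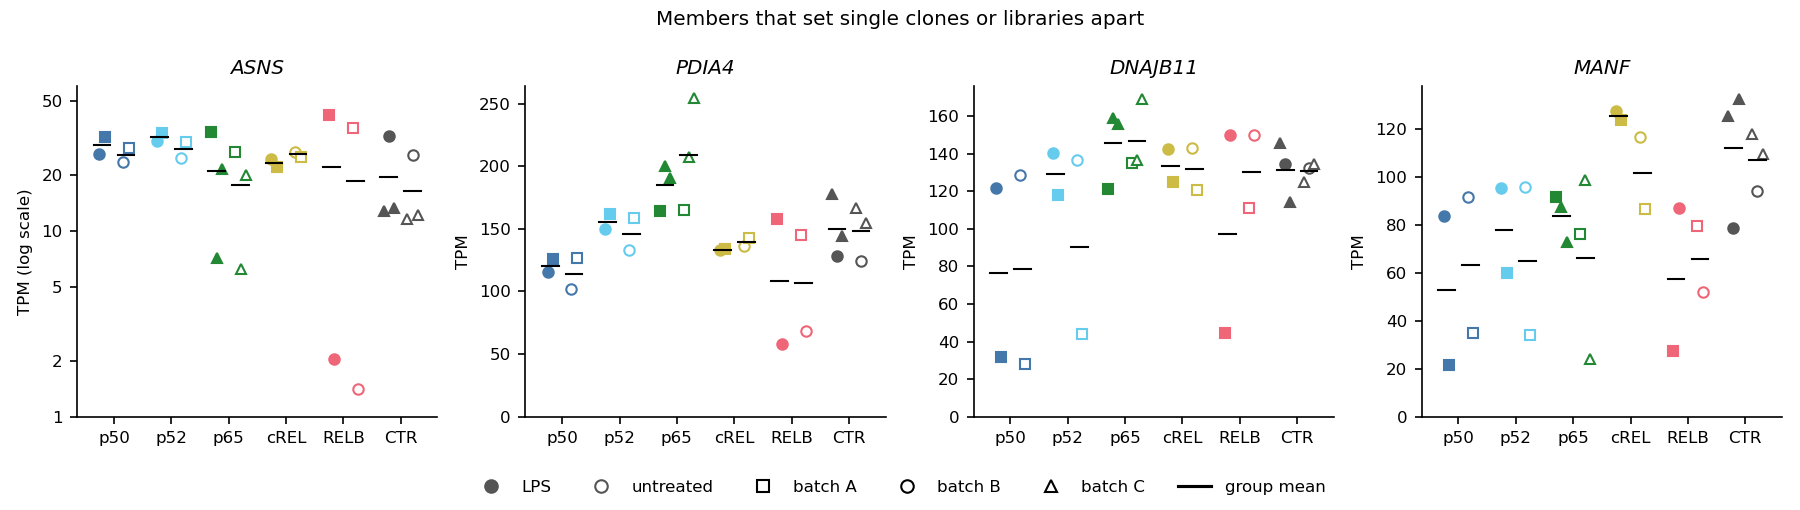
Level in TPM of ASNS (log axis), PDIA4, DNAJB11 and MANF in each library, with LPS (filled) to the left of untreated (open), marker shape for batch and a bar for the group mean. RELB replicate 2 is far below the rest for ASNS, at 2.04 TPM with LPS and 1.41 TPM untreated, and 4 libraries hold DNAJB11 at 28.1 to 44.3 TPM.

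Other genes of these pathways were read from 3 lists: 32 further ATF4 targets, among them aminoacyl-tRNA synthetases, 32 further XBP1 or ATF6 targets, and 7 further sensors, kinases and processing proteases. Of these, 31, 31 and 7 passed the filter. In the unpaired model none was called with LPS in any genotype or in the mean, by edgeR, where 2 ATF4 targets, 0 XBP1 or ATF6 targets and 0 sensors had an unadjusted p under 0.05 in CTR, as did 5.12% of all genes. DESeq2 called JDP2 in the mean, and limma voom WARS in CTR and DDIT4 and JDP2 in the mean. In the paired model DDIT4, which encodes REDD1, a stress-induced inhibitor of mTORC1, rose with LPS in RELB (log2 fold 0.93, edgeR adjusted p = 0.00974), in CTR (0.90, adjusted p = 0.00111) and in the mean (0.49, adjusted p = 0.000214). DDIT4 had 139 and 100.5 TPM in p50, 141 and 151 in p52, 72.7, 163 and 179 in p65, 121 and 76.7 in cREL, 387 and 225 in RELB, and 167, 263 and 189.6 in CTR with LPS. Untreated, it had 124 and 64.3 TPM in p50, 104 and 121 in p52, 77.7, 117 and 176 in p65, 97.9 and 65.97 in cREL, 190.3 and 150.1 in RELB, and 109, 138 and 86.6 in CTR. All RELB and all CTR libraries with LPS lay above the untreated ones of the same genotype. WARS, the tryptophanyl-tRNA synthetase gene, which interferon also induces, rose in CTR in that model (0.48, edgeR adjusted p = 0.017). JDP2, which encodes a repressor of the ATF and AP-1 family, rose in the mean (0.71, edgeR adjusted p = 0.0488). JDP2 was low throughout, and its CTR clones did not all rise. They had 2.68, 4.62 and 4.48 CPM with LPS, against 4.19, 4.29 and 3.20 CPM untreated. Against CTR with LPS, 2 of the 31 XBP1 or ATF6 targets passed in the mean of the knockouts, where 0.838% of all genes did. HSPA13, an ER-associated member of the HSP70 family, fell by 0.51 ± 0.12 (SE, edgeR adjusted p = 0.0476), and SIL1, the nucleotide exchange factor of BiP, rose by 0.53 ± 0.12 (adjusted p = 0.0435). DESeq2 called the same genes there, HSPA13 and SIL1, and limma voom neither. With each of the 14 clones left out in turn, HSPA13 held 2 times and SIL1 3 times, and without CTR replicate 2 their log2 folds were −0.31 (edgeR adjusted p = 0.631) and 0.62 (adjusted p = 0.258). Without a batch term SIL1 was at 0.21 (adjusted p = 0.772). None of the 31 ATF4 targets passed there by edgeR (unadjusted p under 0.05 for 5, and for 11.8% of all genes), DESeq2 or limma voom, and their median log2 fold was −0.18, with 25 of 31 below 0, against −0.40 for the 17 ATF4-type members and −0.04 for all genes tested. Without CTR replicate 2 the median of the ATF4-type members in the mean was −0.20, with 12 of 17 below 0. In single knockouts against CTR, DESeq2 called the ATF4 targets SLC1A4 in p65 at either treatment and GPT2 in p65 with LPS. It also called ALDH18A1 in cREL with LPS. Of the XBP1 or ATF6 targets with LPS, it called SIL1 in p52, p65, cREL and RELB and HSPA13 in p50 and p52. ERO1B in p50 and FICD in p65 were called as well. EdgeR and limma voom called none of these in single knockouts. The share of all genes that DESeq2 called is not given, so its calls are no result about these lists.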

How the data were processed

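RNA was measured by sequencing of polyadenylated RNA from 28 libraries of U937 clones. Per the labels' protocols, polyadenylated RNA was captured with oligo(dT), amplified by PCR, and made into paired-end Nextera XT libraries. Salmon 0.11.3, FastQC 0.11.7 and GRCh38 are named in the submitters' processing notes, with no role given. The authors deposited 3 tables by gene symbol: estimated counts, TPM and effective lengths. Of the estimated counts above 0, 41.0% to 47.5% per library were whole numbers. Each library summed to 12643438 to 22122428 estimated counts, which limits precision for low genes such as CHAC1 and EIF2AK3.

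From the deposited estimated counts, rounded to whole numbers, the 18624 genes passing filterByExpr (minimum count 10, minimum total 15) were fitted with edgeR 4.0.16 in R 4.3.3: TMM normalization, a robust quasi-likelihood fit over all 12 groups with the batch as an added term (14 residual degrees of freedom, biological coefficient of variation 31.7%), and Benjamini-Hochberg adjustment over all genes with a threshold of 0.05. Log2 CPM used a prior count of 2 and log2 TPM a pseudocount of 1. Samples were grouped by the genotype and treatment in their titles. The LPS and untreated libraries of the same clone number deviated together from their group means (correlation 0.203 to 0.441 in the 14 clones). In p50, p52, cREL and RELB both clones necessarily have the same value, and they lie in different batches. A shared clone cannot be told from a shared batch there. The numbers were read as pairs. The model with the clone as a replicate block (coefficient of variation 21.0% at 8 residual degrees of freedom) is given beside LPS results. It cannot give knockout against CTR, which differ between clones.

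Other fits used DESeq2 1.42.0 and limma voom 3.58.1, the second with a random clone effect (consensus correlation 0.355). Further choices were DESeq2 size factors, no filter, no batch term, an effective length offset, single batches and each clone left out. A fit without 4 libraries and a GC-adjusted offset were chosen after seeing the data. The edgeR steps were tested on simulated data. The genes and lists were chosen with earlier results of these data known. Values per library are given for members called in a comparison, for up to 4 members of each role with the widest range of group means, and for the highest and lowest member. HSPA5, PDIA4 and the other members described outside that rule were chosen after their values were seen. Gene positions are from GENCODE 29.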

Additional observations from a re-analysis of the deposited data

How the results depend on the processing

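Counts of members called moved as follows. Shares of all genes passing are given only for the main fit, the replicate block with LPS and the fit without p65 replicate 1. The other counts compare fits and are no result about the members. Without the filter, TRIB3 in p50 with LPS kept its log2 fold (−1.89) at a lower edgeR adjusted p (1.3e-11) than in the main fit. Leaving out 1 clone of a knockout with 2 left a lone clone, assumed to vary like the other groups. LPS in RELB gave 1 with DESeq2, 1 with limma voom and 4 with the replicate block, against 0. LPS in CTR gave 0 with DESeq2 size factors, 0 without the filter, 2 with limma voom, 0 without a batch term, 3 with the replicate block, 0 in batch C alone and 0 to 0 without each CTR clone, against 1. The mean LPS response gave 3 without the filter, 2 with limma voom and 4 with the replicate block, against 1. The replicate block changed no other count.

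For knockouts against CTR without LPS, all at 0, the fit without the filter gave 3 in p50, 3 in p52, 1 in p65, 1 in cREL and 4 in the mean, DESeq2 gave 1 in p50, and leaving out clones gave 0 to 1 in p65, 0 to 3 in RELB and 0 to 1 in the mean, with 0 in every knockout when the clone belonged to another knockout. With LPS, p50 gave 6 without the filter, 2 with DESeq2, and 0 without a batch term, with a length offset or without the 4 libraries, and 0 to 1 without single p50 or CTR clones, against 1. The other values were 4 and 2 in p52 (no filter, DESeq2), 5, 3, 2 and 1 in p65 (no filter, DESeq2, limma voom, length offset), 4, 1 and 1 in cREL (no filter, DESeq2, limma voom) and 2 in RELB (no filter), all against 0. Leaving out a clone of the knockout itself or of CTR gave 0 to 1 in p52, 0 to 1 in cREL and 0 to 2 in RELB. Leaving out a clone of another knockout gave 0 to 3 in p50, 0 to 3 in p52, 0 to 1 in p65, 0 to 2 in cREL and 0 to 0 in RELB. The mean gave 5 without the filter, 4 with DESeq2, 1 without a batch term, 1 with a length offset, 1 without the 4 libraries and 1 with a GC-adjusted offset, and 0 to 5 without single clones, against 2.

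The ATF4-type minus chaperone difference moved to −0.092 for LPS in CTR with medians over members. Knockout minus CTR without LPS moved to −0.77 in p50, −0.98 in p52, −0.80 in cREL and −0.72 in RELB in batch B alone, and to −0.63 in p52 with medians. With LPS it moved to −0.87 in p50, −1.14 in p52, −1.06 in cREL and −0.70 in RELB in batch B alone, to −0.17 in p65 in batch C alone and to −0.14 in cREL with medians. Leaving out clones gave −0.42 to 0.17 in p50, −0.62 to −0.034 in p52, −0.74 to −0.15 in p65, −0.75 to −0.16 in cREL and −0.087 to 0.504 in RELB. The cause of these shifts was not tested.

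With 2 or 3 clones a group, batch A without CTR and batch C without 4 of the knockouts, knockout effects rest on few clones, and levels of a few TPM limit CHAC1, EIF2AK3, ERN1 and ATF3.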

Other observations

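Some members moved against each other from library to library. Over the residuals of the 28 libraries, PSAT1, which makes phosphoserine, had a correlation of −0.86 with SDF2L1 and −0.80 with MANF, the lowest values of all 703 pairs. MTHFD2 had −0.75 with CRELD2. ATF4 messenger RNA had 0.60 with TRIB3, 0.83 with SLC3A2 and −0.09 with HSPA5. These values describe libraries that share clones, batches and depth.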
